A study of Mus musculus with 70 samples.

Results

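Neuropeptides are small proteins that neurons cut from larger precursors, pack into dense core granules and release during sustained firing. The 10 genes described here are 8 neuropeptide precursors (Npy, Sst, Vip, Cck, Penk, Pdyn, Tac1 and Crh) and the neuropeptide Y receptors Npy1r and Npy2r. They were taken by symbol from the FPKM table, where all 10 are among 24346 genes listed. RNA came from the dorsal hippocampus of 70 adult male mice, which the study's methods give as C57BL/6J animals housed singly, with 10 libraries in each of 7 groups. Exercise groups are named by days of initial voluntary wheel running, then days of sedentary delay, then days of reactivating running. 14-0-0 mice had no delay, 14-7-0 and 14-14-0 mice had a delay, 14-7-2 mice a delay and then 2 more days of running, and 0-0-2 mice ran for those last 2 days only. Per the study's methods, all wheels were taken away on the night before training. The sedentary group (0-0-0) did not run. These 6 groups all had 3 min of subthreshold object location memory (OLM) training 1 h before the tissue was taken, whereas home cage mice neither ran nor were trained. The study set out to find genes that differ when exercise enables memory formation, which it reports for 14-0-0 and 14-7-2. Those groups are called memory-enabling here. Every group holds 5 libraries from each of 2 harvest cohorts.

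Most hippocampal neuropeptides are made by GABAergic interneurons and define their classes. Neuropeptide Y dampens excitatory transmission: Npy1r encodes a Gi-coupled receptor found largely on the receiving cell, and Npy2r one found largely on axon terminals. Somatostatin (Sst) marks interneurons that contact dendrites, vasoactive intestinal peptide (Vip) marks many that inhibit other interneurons, and cholecystokinin (Cck) is made by a class of basket cells and also by pyramidal cells. Penk and Pdyn encode the precursors of the enkephalins and dynorphins, the opioid peptides, with dynorphin held in the mossy fibres of dentate granule cells. Tac1 encodes substance P and neurokinin A, and Crh encodes corticotropin-releasing hormone.

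Several neuropeptide genes are known for control by cAMP and neuronal activity through the cAMP response element, so their promoters were searched for its full form, TGACGTCA, which reads the same on both strands. RefSeq promoters (build GRCm38.p6, 250 bases before to 50 bases after each start site) were found for 8 of the 10 genes, 9 start sites in all. The names without an entry were Penk and Crh. Of the 9 promoters, 1 held the full element, that of Sst, against 1.79% of all 32851 promoters. The Sst element ends 40 bases before the RefSeq start site. It is given here in capitals, with the bases on either side, on the minus strand at chr16:23890874-23890903. GENCODE's span of Sst, given below, begins further upstream, so this stretch lies inside that span. The element is the one that the Sst promoter is best known for.
Sst: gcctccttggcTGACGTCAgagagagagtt
The shorter core CGTCA, searched on both strands and contained in the full one, was present in 4 of the 9 promoters (Sst, Vip, Cck and Tac1) and in 20.8% of all promoters. These matches describe letters only. Npy (chr6:49822710-49829507) and Tac1 (chr6:7554879-7565834) lie on the same chromosome, as do Npy2r (chr3:82538383-82548084) and Crh (chr3:19693401-19695396). Npy1r is at chr8:66697192-66706792, Vip at chr10:5639218-5647617, Cck at chr9:121489824-121495694 and Sst at chr16:23889573-23890958. The opioid precursors are at chr4:4133531-4138819 for Penk and chr2:129686565-129699844 for Pdyn. All 10 are protein coding genes, and the coordinates are GENCODE's for GRCm38, the assembly also called mm10, which the submitters' processing notes name.

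The library of sedentary replicate 6 stood apart from the other 69 in 9 of the 10 genes, all but Sst. It lay below every other library in 5 of them and above every other in 4. Cck measured 13.2 FPKM (fragments per kilobase of transcript, scaled to the mapped reads of each library) in it against a range of 209 to 739 FPKM in the others, and Tac1 measured 73.7 FPKM against 4.98 to 16.2. Penk was at 190 FPKM (14.7 to 67.5 elsewhere), 6.45 times the mean of the other 9 sedentary libraries. Markers of other regions were also high in it. Its striatum marker sum was 296 FPKM (45.9 to 130 in the others), its thalamus marker sum 214 FPKM (24.9 to 143) and its inhibitory neuron sum 1052 FPKM (318 to 734). Markers of hippocampal excitatory cells were low: Slc17a7, the vesicular glutamate transporter of cortical and hippocampal neurons, was at 17.1 FPKM against 367 to 870, and Prox1, which marks dentate granule cells, at 2.91 against 9.70 to 36.8. The labelled tissue was thus borne out by its markers in the other 69 libraries and not in this one. Comparisons with sedentary are therefore given with and without it. Another library, 14-7-0 replicate 4, listed 10279 genes at 0 FPKM against 6243 to 7199 in the others, and Crh is listed at 0 in it. In all of these bulk samples, fewer cells of a type and less RNA per cell cannot be told apart.

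**Figure D1:**
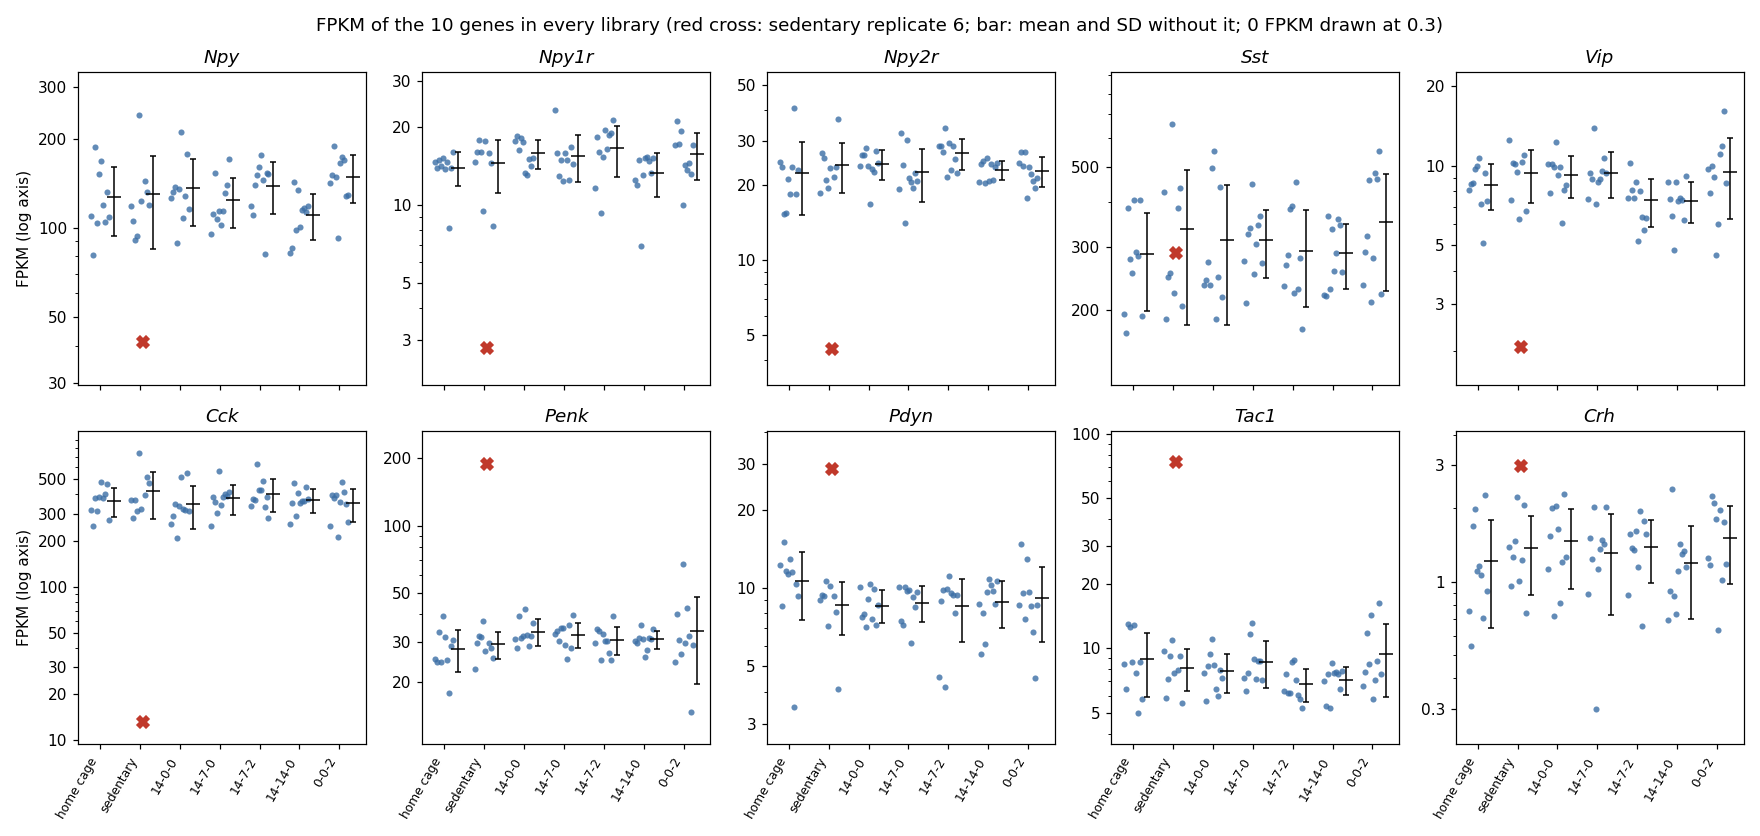
FPKM of each of the 10 genes (log axis) in every library, by group (10 libraries each); bars give the mean and SD without sedentary replicate 6, the red cross. The cross lies outside the range of the other 69 libraries in 9 of 10 panels, and the groups otherwise overlap.

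FPKM are divided by transcript length, so levels can be set side by side between genes. Cck was the most abundant, with a median of 368 FPKM over all 70 libraries, followed by Sst at 280 FPKM and Npy at 127 FPKM. Penk (30.9 FPKM) and the receptor Npy2r (23.5 FPKM) came next, then Npy1r at 14.9 FPKM. Pdyn (9.35 FPKM), Vip (8.62 FPKM) and Tac1 (7.70 FPKM) lay close together, and Crh was lowest at 1.28 FPKM. Without sedentary replicate 6, the coefficient of variation between libraries was lowest for Npy2r at 19.6% and highest for Crh at 37.6%.

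The group means were then set against this spread. With sedentary replicate 6 left out, the highest group mean was between 1.20 times (Npy2r and Penk) and 1.39 times (Tac1) the lowest. When the 7 groups were put in order for each gene, all 60 gaps between neighbouring means were smaller than the smaller of the pair's SDs. The widest of them was 0.790 SD. Such gaps split the range from the highest to the lowest mean into steps, and the SDs are those of single libraries. Small gaps were thus likely for any gene, and they do not describe groups further apart in the order. Below, n = 10 for each group mean, or 9 for sedentary without replicate 6.

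Npy, the ligand, was highest in 0-0-2 (149 ± 27.7 FPKM, mean ± SD), followed by 14-7-2 (139 ± 27.7), 14-0-0 (136 ± 34.8), sedentary without replicate 6 (130 ± 44.9), home cage (127 ± 33.2), 14-7-0 (124 ± 24.1) and 14-14-0 (111 ± 19.4). Npy1r was highest in 14-7-2 at 16.5 ± 3.70 FPKM and lowest in 14-14-0 at 13.3 ± 2.55, with 15.8 ± 2.03 in 14-0-0, 15.7 ± 3.23 in 0-0-2, 15.4 ± 3.17 in 14-7-0, 14.4 ± 3.35 in the 9 sedentary libraries and 13.9 ± 2.12 in home cage. Npy2r was also highest in 14-7-2, at 26.8 ± 3.83 FPKM. The other 6 groups lay between 22.3 ± 7.19 in home cage and 24.2 ± 3.24 in 14-0-0. Both receptors thus had their 2 highest group means in the memory-enabling groups, but second place was close. Npy1r in 14-0-0 was 0.122 FPKM above 0-0-2. Npy2r in 14-0-0 was 0.172 FPKM above sedentary without replicate 6 (24.1 ± 5.46). For Npy1r this order is not independent of the study, which lists the gene among those up-regulated in these groups on the same libraries.

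Of the interneuron peptides, Sst ran from 286 ± 87.3 FPKM in home cage to 352 ± 126 in 0-0-2, and Cck from 346 ± 108 in 14-0-0 to 420 ± 143 in the 9 sedentary libraries. Vip was highest in 0-0-2 (9.48 ± 3.18 FPKM) and lowest in 14-7-2 (7.38 ± 1.51 FPKM) and 14-14-0 (7.37 ± 1.30). Among the opioid precursors, Penk ran from 28.1 ± 5.95 FPKM in home cage to 33.8 ± 14.2 in 0-0-2, where replicate 4 alone reached 67.5. Pdyn ran from 8.51 ± 2.33 FPKM in 14-7-2 to 10.7 ± 3.12 in home cage. Tac1 was lowest in 14-7-2 (6.80 ± 1.20 FPKM) and highest in 0-0-2 (9.44 ± 3.49). Crh stayed between 1.19 ± 0.493 FPKM in 14-14-0 and 1.51 ± 0.533 in 0-0-2.

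Comparison with sedentary mice asks which of these genes change during consolidation once the animals have exercised. A gene counts as called here when limma's unadjusted p is under 0.05. With all 10 sedentary libraries, none of the 10 was called in any of the 6 comparisons, that is 0 of 60 pairs of gene and comparison. Among all 12994 genes tested, the share called against sedentary was 9.15% for 14-0-0, 4.39% for 14-7-2 and 4.95% for 14-14-0. It was 3.26% for 14-7-0, 2.30% for home cage mice and 2.37% for 0-0-2. The smallest Benjamini-Hochberg adjusted p among the 60 pairs (limma) was 0.641. These comparisons share the sedentary libraries. Without sedentary replicate 6, 3 of the 60 pairs were called, in 14-0-0, 14-7-2 and 14-14-0, and 0 of 10 genes in 14-7-0 (3.29% of all genes) and 0-0-2 (2.52%). The sign changed in 31 pairs, and the median standard error of the 60 differences went from 0.250 to 0.156 on the log2(FPKM + 0.1) scale, on which all differences here are given.

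Leaving out replicate 6 moved every difference of the ligand and receptors downward. The 6 differences from sedentary went from a range of -0.03 to 0.39 to one of -0.19 to 0.23 for Npy, from 0.12 to 0.42 to -0.11 to 0.19 for Npy1r and from 0.11 to 0.41 to -0.13 to 0.17 for Npy2r. Npy in the 10 sedentary libraries had a lowest value of 41.1, a median of 119 and a highest of 240 FPKM, and in 0-0-2 these were 92.5, 150 and 188. The groups overlapped, and the difference was +0.39 (95% interval -0.05 to 0.83, p = 0.078) with all libraries and +0.23 (-0.09 to 0.55, p = 0.151) without replicate 6. Npy1r in sedentary ran from 2.81 through a median of 15.2 to 17.7 FPKM, against 13.1, 15.7 and 18.4 in 14-0-0 and 9.29, 17.3 and 21.3 in 14-7-2. These too overlapped. Its differences of +0.39 in 14-0-0 (p = 0.130) and +0.42 in 14-7-2 (p = 0.126) became +0.16 (-0.11 to 0.44, p = 0.226) and +0.19 (-0.15 to 0.54, p = 0.248) without replicate 6. The study, with another test, lists Npy1r as up-regulated in both groups, whereas it was not called here. The sedentary mean listed there equals that of all 10 libraries here (13.3 FPKM), replicate 6 included. Without replicate 6 the mean was 14.4 FPKM. For Npy2r the largest of the 6 differences, in 14-7-2, went from +0.41 (p = 0.115) to +0.17 (-0.06 to 0.40, p = 0.140).

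Cck, Penk and Tac1 turned on the same library. Cck was higher than sedentary in all 6 comparisons with it, by 0.22 to 0.46, and lower in all 6 without it, with differences from -0.28 to -0.03, and none was called. Penk was below sedentary in all 6 (-0.35 to -0.08) and above it in 5 of 6 without the library. In 14-0-0, Penk ran from 28.2 through a median of 32.0 to 42.3 FPKM, against 22.9, 29.8 and 37.3 in the 9 sedentary libraries, and the +0.19 difference was called (SE 0.09, p = 0.044, limma adjusted p = 0.464), where 10.3% of all genes were. The groups overlapped, with 8 of 10 libraries of 14-0-0 above the sedentary median. Of 7 striatum markers, 2 were also higher in 14-0-0 and 0 lower: Drd1, a dopamine receptor, by 0.59 (p = 0.00056) and Ppp1r1b by 0.52 (p = 0.023). All 12 choroid plexus markers were higher (median difference 2.77), 3 of 19 inhibitory neuron markers were lower and 6 of 10 immediate early genes were lower. The part of these markers in the Penk value was not tested. Tac1 was below sedentary in all 6 with the library, most in 14-7-2 (-0.56, p = 0.098). Without it the 14-7-2 difference was -0.24 (-0.50 to 0.02, p = 0.069), and 3 of 6 signs changed.

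Vip gained calls once the library was left out. In the 9 sedentary libraries its lowest, median and highest values were 6.30, 10.1 and 12.5 FPKM, against 5.21, 7.55 and 10.3 in 14-7-2 and 4.8, 7.43 and 9.15 in 14-14-0. The groups overlapped, but 9 of 10 libraries of 14-7-2 and 10 of 10 of 14-14-0 lay under the sedentary median. Vip was lower in 14-7-2 (-0.33, SE 0.14, p = 0.027) and in 14-14-0 (-0.32, SE 0.13, p = 0.024), with limma adjusted p = 0.998 and 0.685. Vip was the only 1 of 10 genes called in each, where 3.58% and 6.97% of all genes were. With all 10 sedentary libraries the differences were -0.12 (p = 0.620) and -0.12 (p = 0.623). With all sedentary libraries, the 14-14-0 difference was -0.47 in cohort 1 and +0.24 in cohort 2, the cohort that holds replicate 6. Some inhibitory neuron markers were called as well, with list medians of -0.12 in 14-7-2 and -0.05 in 14-14-0, where those of all genes were -0.01 and -0.02. In 14-7-2, 3 of 19 were lower (Nos1, Sox6 and Gad1) and 0 higher, and in 14-14-0, 2 of 19 were lower (Htr3a and Lhx6) and 0 higher. Of 10 immediate early genes, 6 were lower in 14-7-2 and 5 in 14-14-0. All 12 choroid plexus markers were higher in 14-14-0 (median difference 2.69). Their part in the Vip values was not tested.

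Sst, which replicate 6 does not move, differed from sedentary by -0.17 to 0.10 over the 6 groups without it, with 95% intervals between -0.65 and 0.61. Pdyn differed by -0.03 to 0.28 and Crh by -0.28 to 0.12, and neither was called with or without the library. Crh in 14-7-0 had the widest interval (-1.17 to 0.61), and includes the library where it is listed at 0.

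**Figure D2:**
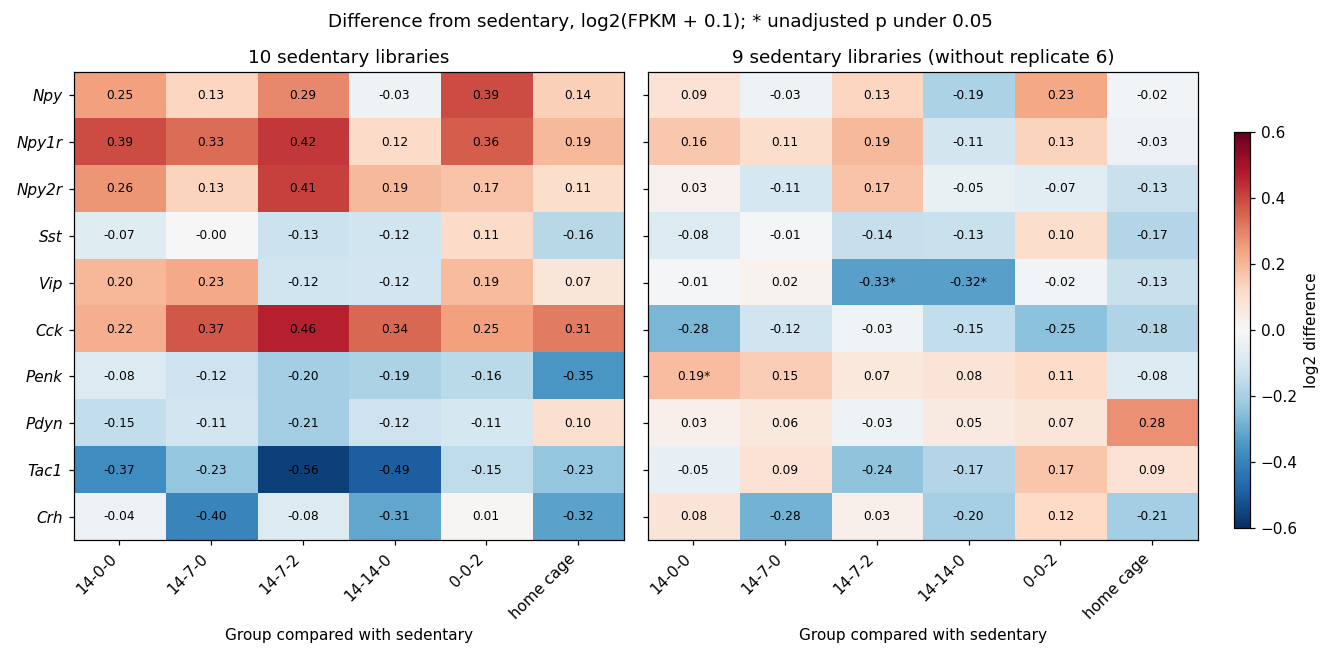
Log2 difference of each gene (rows) in each group (columns) from sedentary, with all 10 sedentary libraries on the left and without replicate 6 on the right; asterisks mark an unadjusted p under 0.05. No cell is marked on the left and 3 are on the right, and 31 of the 60 signs differ between the panels.

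Direct comparison of exercise groups leaves the sedentary library out. Adding 2 days of reactivating exercise to the 7 day delay (14-7-2 against 14-7-0) called 3 of the 10 genes, where 5.39% of all genes were called. Vip and Tac1 were lower in 14-7-2 and Npy2r was higher. Vip ran from 5.21 through a median of 7.55 to 10.3 FPKM in 14-7-2 and from 7.13 through 9.15 to 13.9 in 14-7-0, so the ranges overlapped, with 9 of 10 libraries of 14-7-2 below the median of 14-7-0. The difference was -0.35 (SE 0.12, 0.786-fold, p = 0.0089). Tac1 ran from 5.26 through 6.27 to 8.84 FPKM in 14-7-2 and from 6.32 through 8.21 to 13.2 in 14-7-0, and 8 of 10 libraries were below the median of 14-7-0. The difference was -0.33 (SE 0.12, 0.796-fold, p = 0.015). Npy2r ran from 21.6 through 27.8 to 33.9 FPKM in 14-7-2 and from 14.1 through 21.1 to 32.4 in 14-7-0. All 10 libraries of 14-7-2 exceeded the median of 14-7-0, although the ranges overlapped. The difference was +0.28 (SE 0.12, 1.21-fold, p = 0.031). None of the 3 passed adjustment over all genes (limma, adjusted p = 0.660 for Vip, 0.743 for Tac1 and 0.869 for Npy2r).

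The 7 other genes were not called in that comparison. Npy was higher in 14-7-2 by 0.16 (95% interval -0.11 to 0.42) and Npy1r by 0.09 (-0.20 to 0.37). The differences were -0.13 for Sst (-0.46 to 0.20), +0.09 for Cck (-0.20 to 0.38), -0.08 for Penk (-0.26 to 0.10) and -0.09 for Pdyn (-0.44 to 0.25). Crh gave +0.31 with an interval from -0.53 to 1.16.

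A joint fit of all 7 groups, which pools their spread and includes sedentary replicate 6, ended all 3 calls (p = 0.058 for Vip, 0.151 for Tac1 and 0.111 for Npy2r), and without that library the joint fit kept them (p = 0.019, 0.037 and 0.022). With the replicate number as a block, Npy2r was not called (p = 0.065). Of these 3 calls, those of Vip and Tac1 held with each of the 20 libraries left out in turn, and that of Npy2r held in 15 of 20. Npy2r was lost without 14-7-0 replicate 0, 3 or 7 and without 14-7-2 replicate 3 or 5. Leaving out 14-7-2 replicate 3, where Npy2r was at its highest and thalamus markers summed to 119 FPKM, gave +0.24 (p = 0.062). Within harvest cohorts the Vip difference was -0.12 in cohort 1 (p = 0.514) and -0.58 in cohort 2 (p = 0.00049). In cohort 2 the ranges did not overlap, at 5.21 to 8.04 FPKM in 14-7-2 and 8.69 to 10.7 in 14-7-0. In cohort 1 they did, at 7.53 to 10.3 and 7.13 to 13.9. Tac1 gave -0.35 and -0.31 in cohorts 1 and 2 (p = 0.119 and 0.054), and Npy2r gave +0.26 and +0.29 (p = 0.254 and 0.0078). Npy1r, not called in the whole comparison, was higher in 14-7-2 in cohort 2 (19.0 ± 1.75 against 14.9 ± 1.65 FPKM, +0.35, p = 0.0041) and had a difference of -0.17 in cohort 1 (p = 0.440).

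Marker genes of other tissue moved in the same comparison. Of 6 neocortex markers tested, 2 were lower in 14-7-2 and 0 higher. Tshz2 fell from 7.22 ± 3.52 to 3.18 ± 2.38 FPKM (p = 0.011) and Hs3st2 from 2.55 ± 1.35 to 1.58 ± 0.637 (p = 0.023). The neocortex marker sum ran from 28.5 through a median of 30.9 to 49.8 FPKM in 14-7-2 and from 26.9 through 42.3 to 52.2 in 14-7-0. Of 19 inhibitory neuron markers, 5 were lower and 0 higher, among them Lamp5 (25.4 ± 2.82 against 30.3 ± 3.19 FPKM, p = 0.0013) and Gad1 (116 ± 8.90 against 128 ± 10.4, p = 0.010), the enzyme that makes GABA. The summed inhibitory level had medians of 409 and 449 FPKM, with ranges of 344 to 438 and 384 to 476. Of 10 pyramidal cell markers, 1 was higher and 2 were lower. Their part in the Vip, Tac1 and Npy2r differences was not tested.

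Against 2 days of running alone (14-7-2 against 0-0-2), 2 of 10 genes were called, where 2.43% of all genes were. Npy2r was higher (26.8 ± 3.83 against 22.7 ± 3.05 FPKM, difference +0.24, SE 0.09, p = 0.013). Its lowest, median and highest values in 0-0-2 were 17.8, 22.8 and 27.0, and 8 of 10 libraries of 14-7-2 lay above that median. Tac1 was lower (6.80 ± 1.20 against 9.44 ± 3.49 FPKM, difference -0.41, SE 0.16, p = 0.021), with values in 0-0-2 from 5.79 through 8.08 to 16.2. The highest of these, replicate 8, also had the highest neocortex marker sum of 0-0-2 (70.5 FPKM, group median 33.0). Of the 6 neocortex markers, 1 was lower in 14-7-2 (Tshz2, p = 0.041) and 0 higher, and their part in the Tac1 value was not tested. Both adjusted p values were 1 (limma). The joint fit of all 7 groups ended both calls (p = 0.172 for Npy2r and 0.077 for Tac1), and without sedentary replicate 6 the joint fit kept them. Both calls were lost once all libraries with thalamus marker sums over 100 FPKM were left out (+0.16, p = 0.056, and -0.32, p = 0.064), which here are 0-0-2 replicate 4 and 14-7-2 replicate 3. The Vip difference was -0.31 (95% interval -0.67 to 0.05, p = 0.091). Vip was called without 0-0-2 replicate 4 (-0.41, p = 0.012) or replicate 5 (-0.37, p = 0.043), and its difference was +0.07 in cohort 1 and -0.69 in cohort 2.

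Running for 14 days with no delay against the same running followed by 7 sedentary days (14-0-0 against 14-7-0) called 0 of 10 genes, where 5.63% of all genes were called. The smallest unadjusted p was 0.284, for Npy2r (+0.13, 95% interval -0.12 to 0.38), and no limma adjusted p was under 1. Apart from Crh, the intervals of the other 9 genes lay between -0.49 and 0.39.

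**Figure D3:**
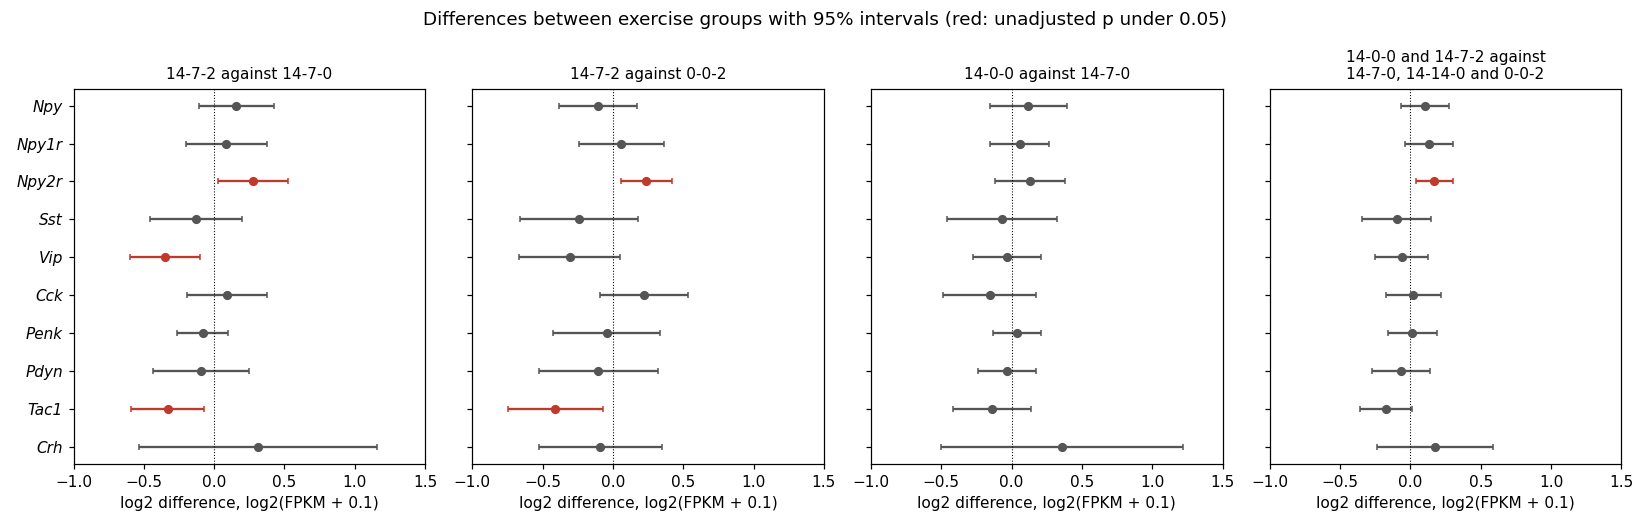
Log2 differences with 95% intervals for the 10 genes in 4 comparisons between exercise groups; genes with an unadjusted p under 0.05 are red. Npy2r is right of 0 and red in 3 panels, Tac1 is left of 0 and red in 2 and Vip in 1.

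**Figure D4:**
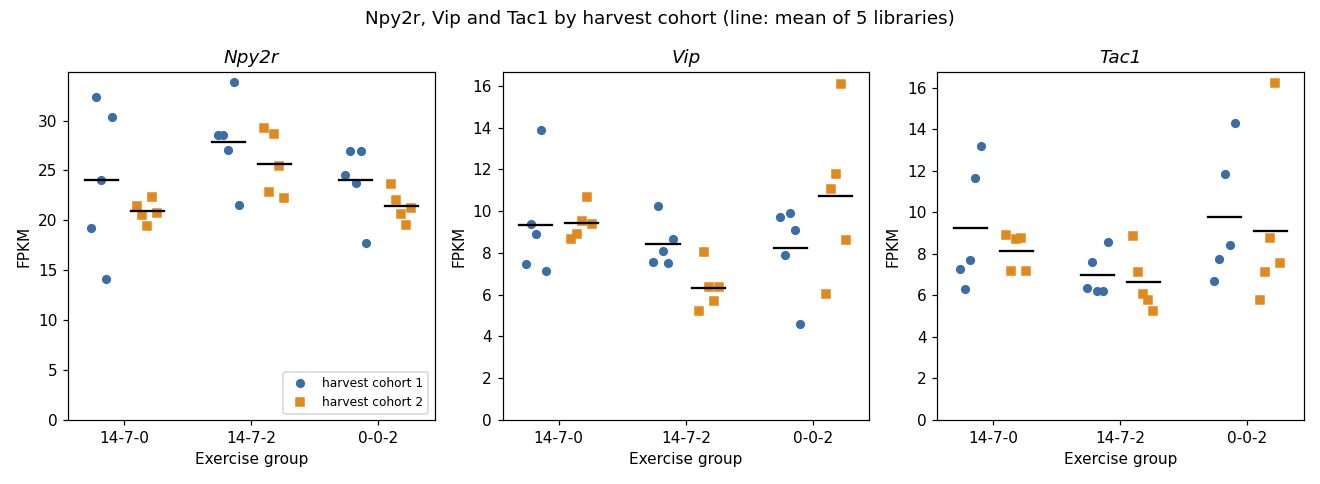
FPKM of Npy2r, Vip and Tac1 in the 5 libraries of each harvest cohort (circles, cohort 1; squares, cohort 2) of 14-7-0, 14-7-2 and 0-0-2, with the mean as a line. Vip in 14-7-2 lies below 14-7-0 without overlap in cohort 2 only.

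Pooling the memory-enabling groups against the other 3 exercise groups called 1 of 10 genes, Npy2r, where 4.43% of all genes were called. Npy2r averaged 25.5 ± 3.70 FPKM over 20 libraries against 22.7 ± 3.63 over 30, a difference of +0.17 (SE 0.06, 1.13-fold, p = 0.011, limma adjusted p = 1). Of the 20 libraries, 18 exceeded the median of the 30. The call held with each of the 50 libraries left out in turn, and was lost in the joint fit of all 7 groups (p = 0.127). That fit includes sedentary replicate 6, and the joint fit without this library kept the call. The cohort values were +0.19 (p = 0.088) and +0.15 (p = 0.034). Of the markers, 2 of 19 inhibitory neuron and 1 of 6 neocortex markers were lower and 2 of 10 pyramidal cell markers were higher, and their part was not tested. Npy1r differed by +0.14 (-0.04 to 0.31, p = 0.117), Npy by +0.10 (-0.07 to 0.28, p = 0.224) and Tac1 by -0.17 (-0.36 to 0.01, p = 0.068). These comparisons reuse the 14-7-2 libraries, so the Npy2r calls are not separate observations.

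Home cage against sedentary compares untrained with trained mice, none of which exercised. Per the study's methods, training followed days of handling and habituation to the chambers, whose part cannot be told apart from that of training here. With all libraries, 6 of 10 differences were above 0 and 4 below. Without sedentary replicate 6 the tally turned to 2 above and 8 below, and 0 were called, where 3.15% of all genes were. The largest was Pdyn, with a range of 3.50 to 15.1 FPKM and a median of 11.5 in home cage against 4.08 to 10.7 and 9.31 in the 9 sedentary libraries, a difference of +0.28 (-0.18 to 0.73, p = 0.220). Between harvest cohorts, 0 of the 10 genes were called with all libraries (11.9% of all genes) and 1 without sedentary replicate 6 (12.1%): Cck averaged 393 ± 74.3 FPKM in cohort 2 and 358 ± 110 in cohort 1 (difference +0.17, SE 0.08, p = 0.041, limma adjusted p = 0.384). The interaction of cohort and group was tested only in the 6 comparisons with sedentary. It passed adjustment in 0 of 60 tests, with or without sedentary replicate 6. Comparisons between exercise groups, whose values by cohort are given above, were not tested for it. At an unadjusted p under 0.05 the interaction was met by 0 and 1 of the 60, the latter being Pdyn in 14-14-0.

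The rest of the peptide system was followed in 3 lists: 30 other precursors, of which 11 were abundant enough to test, 32 receptors (15 tested) and 21 genes of peptide processing and granules (21 tested). Against sedentary without replicate 6, 14-0-0 had 1 precursor higher and 1 lower, 1 receptor higher and 3 lower, and 2 processing genes higher and 0 lower, where 10.3% of all genes were called. With all libraries the receptors were 0 higher and 2 lower (9.15% of all genes) and the other lists had the same counts. Tac2, the neurokinin B precursor, was at 6.39 ± 0.820 FPKM in 14-0-0 and 4.00 ± 1.14 in the 9 sedentary libraries (+0.70, SE 0.13, p = 4.04e-05, limma adjusted p = 0.0858), and with all libraries Tac2 had an adjusted p of 0.279 (+0.60, p = 0.0012). Sstr3, a somatostatin receptor, was at 6.78 ± 0.927 against 9.04 ± 0.929 FPKM (-0.42, p = 8.24e-05, limma adjusted p = 0.0858), and with all libraries Sstr3 had an adjusted p of 0.475 (-0.31, p = 0.029). Scg2, a granule protein cut into secretoneurin, was at 117 ± 12.1 against 97.7 ± 10.1 FPKM (+0.26, p = 0.0013), and with all libraries the Scg2 difference was +0.22 (p = 0.013). The list medians were 0.04 for precursors, -0.05 for receptors and -0.05 for processing genes, where the median of all genes was -0.003.

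Receptors were counted in the other groups too. Without sedentary replicate 6, 14-7-0 had 0 of the 15 receptors higher and 4 lower (3.29% of all genes called), 14-7-2 had 0 and 2 (3.58%), and 14-14-0 had 1 and 4 (6.97%). The 0-0-2 group had 0 receptors higher and 1 lower (2.52%), and home cage had 0 and 2 (3.15%). With all libraries these counts were 0 and 3 for 14-7-0, 0 and 1 for 14-7-2, 0 and 2 for 14-14-0 and 0 and 1 for home cage, and for 0-0-2 they turned to 1 higher and 0 lower. Without replicate 6, the lower ones included Crhr1, the corticotropin-releasing hormone receptor, in 14-7-2 (3.16 against 4.24 FPKM, -0.43, p = 0.016) and Cckbr, the main brain cholecystokinin receptor, in 14-14-0 (2.54 against 3.52 FPKM, -0.43, p = 0.0064). In home cage the lower receptors were Mc4r, a melanocortin receptor (1.79 against 2.46 FPKM, -0.45, p = 0.00053), and Sstr4 (15.7 against 20.3 FPKM, -0.37, p = 0.014). With all libraries Crhr1 (p = 0.0081), Cckbr (p = 0.0038) and Mc4r (p = 0.0016) were called in the same comparisons and Sstr4 was not. For the memory-enabling groups against the other exercise groups, 4 of 21 processing genes were higher and 0 lower, where 4.43% of all genes were called, with a list median of -0.01 against 0.01 for all genes. They included Pam, which amidates peptides (53.8 against 49.9 FPKM, +0.11, p = 0.0031), and the convertase Pcsk2 (86.4 against 79.5 FPKM, +0.12, p = 0.0057). Of the receptors, Npy5r was higher (4.24 against 3.87 FPKM, +0.13, p = 0.040) and 1 was lower. In 14-7-2 against 14-7-0, 0 of 11 precursors and 0 of 15 receptors were called, with 1 processing gene higher and 3 lower.

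Within groups the 10 genes did not vary as a block. Pearson's r was taken on log2(FPKM + 0.1) minus the group mean over 69 libraries, without sedentary replicate 6. Libraries share their dissection, depth and base composition, so these values are descriptions. Of the 45 pairs, 6 had r over 0.5 and 0 had r under -0.5, and the median was 0.13. Sst, Npy and Cck varied together (r = 0.75 for Sst and Cck, 0.71 for Npy and Cck, 0.61 for Npy and Sst). Pdyn went with Npy1r (0.61) and Penk (0.52), and Tac1 with Sst (0.51). Npy2r ran against Pdyn (-0.48), Tac1 (-0.47) and Crh (-0.43). With sedentary replicate 6 included, 8 pairs were over 0.5 and 7 under -0.5, and the Cck and Penk value went from 0.02 to -0.63.

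The genes most like each member were taken from all genes tested. Among these 12994, Npy1r was most like Stxbp6 (r = 0.92), Arhgap20 (0.90) and C1ql3 (0.90), of which Stxbp6 and C1ql3 are on the dentate granule cell list. With the mean of that list's 9 markers, Npy1r had r = 0.85 and Pdyn 0.79. Npy2r was most like Ptgs2 (0.85), the inducible cyclooxygenase, Pvrl3 (0.84) and Ccbe1 (0.82), and had r = -0.48 with the 6 neocortex markers, where Tac1 had 0.53 and Vip 0.48. Cck was most like Cabp1 (0.84), Akt1s1 (0.84) and Arf5 (0.83), and had r = 0.83 with the 10 pyramidal cell markers, where Sst had 0.70. Sst was most like Sf3b5 (0.91), Tpgs1 (0.88) and Nfkbib (0.87), and had r = 0.75 with 10 immediate early genes. Its value with the 19 inhibitory neuron markers was 0.34, and that of Vip was -0.07.

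Npy was most like Nptx2 (0.76), Cck (0.71) and Dexi (0.70). Vip was most like Serpini1 (0.81), Nov (0.79) and Etv1 (0.74), and Pdyn like Pde1b (0.88), Tiam1 (0.86) and Npnt (0.86). Values were lower for Penk, with Inafm2 (0.69), Rgs10 (0.65) and 1810010H24Rik (0.60), and for Tac1, with Ly6g6e (0.64), Bex1 (0.60) and Lxn (0.59). Crh was most like Cenpw (0.74), Rbp4 (0.73) and Max (0.73), but these fell to 0.40, 0.39 and 0.38 once 14-7-0 replicate 4, where Crh is listed at 0, was also left out.

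**Figure D5:**
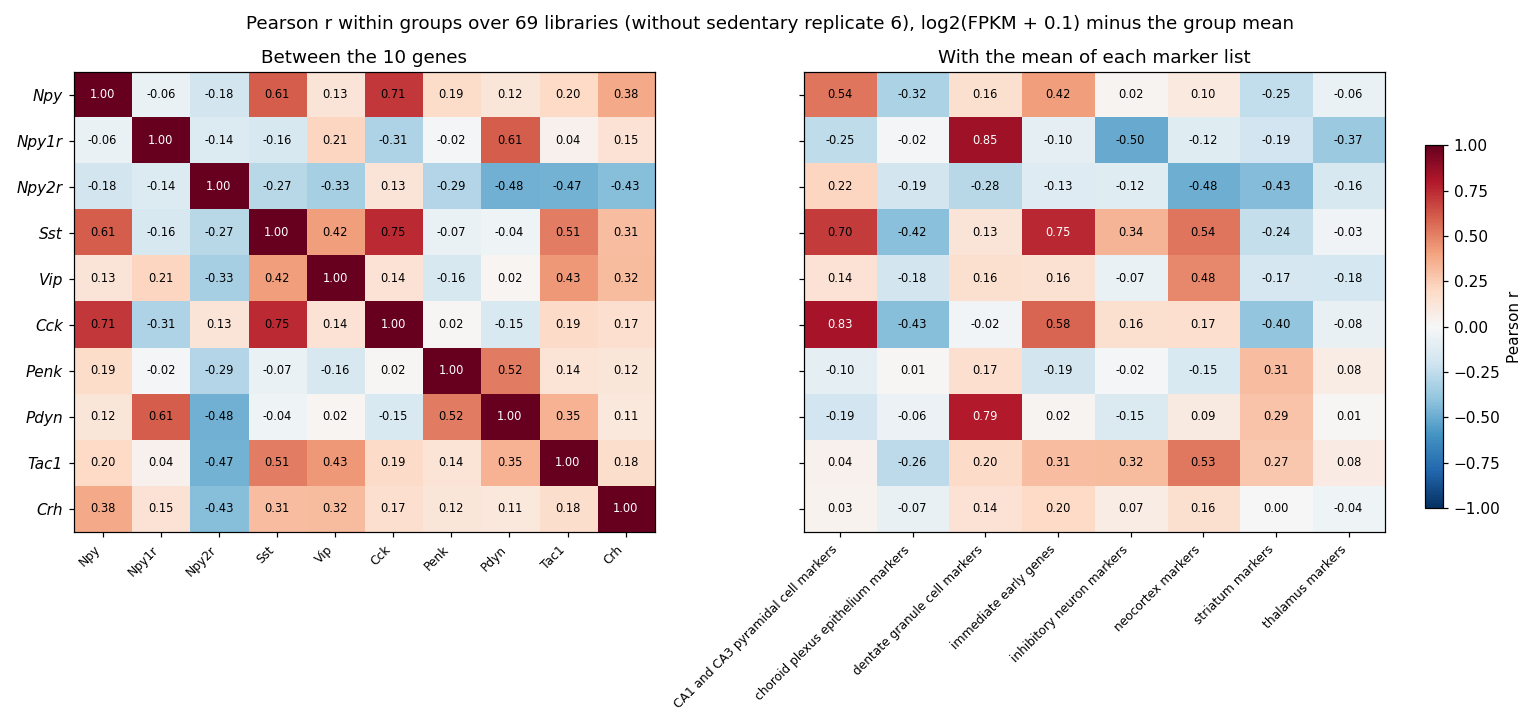
Pearson r over 69 libraries, on log2(FPKM + 0.1) minus the group mean, between the 10 genes (left) and between each gene and the mean of 8 marker lists (right). The strongest cells outside the diagonal are Npy1r and Pdyn with dentate granule cell markers (0.85 and 0.79) and Cck with pyramidal cell markers (0.83).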

How the data were processed

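The deposited FPKM (fragments per kilobase of transcript, scaled to mapped reads) of 24346 genes in 70 libraries were used as given. Per the study's methods, dorsal hippocampal RNA was made into TruSeq libraries, sequenced as single reads, aligned with ELAND and Bowtie and quantified with the Tuxedo tools, and the authors tested groups with Cyber-T. The submitters' processing notes name Bowtie, Cuffnorm and mm10. Depth cannot be read from FPKM, which is why values carry no interval for counting error. The study's supplement gives reads per library under a code and barcode, and lists a library far shallower than the others there. Which library used here that is was not determined. The library with by far the most genes at 0 FPKM here was 14-7-0 replicate 4 (10279, next highest 7199), and whether it is the shallow one was not tested. Groups and harvest cohorts came from the labels.

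Differences were tested with limma 3.58.1 (R 4.3.3) on log2(FPKM + 0.1), which understates the change of genes of low level. All 12994 genes whose mean reached 1 FPKM were fitted together, between the groups compared only, with 2-sided p-values and Benjamini-Hochberg adjustment over all of them. As in the study, a gene was called at an unadjusted p under 0.05. The script was tested on simulated data. Replicates are separate mice, and replicate numbers were not treated as pairs. In each comparison with sedentary, 2 to 7 of 10 same-numbered pairs correlated over 0.1 (highest r 0.381). Differently numbered libraries were not correlated, so these values do not settle whether the numbers pair the libraries. The genes and lists were chosen with earlier results of these data known. All 10 genes are given in every comparison, at most 3 called genes of each pathway list, and for each gene the 3 others of highest Pearson r. Alternatives covered the pseudocount, filter, scaling, joint fit, cohort, replicate block and each library left out. Figures were drawn with matplotlib 3.10.9.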

Additional observations from a re-analysis of the deposited data

Results flagged for a closer look

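In 13 of 70 sets of 10 values (10 genes in 7 groups), the highest or lowest library lay far from the next, where chance gives about 1 in 20, or 3.5 sets. Of the 13 flagged sets, 3 were flagged for sedentary replicate 6, with Penk at 189.6 FPKM, Pdyn at 28.87 FPKM and Tac1 at 73.68 FPKM. Sedentary replicate 4 was highest in Npy (240.3 FPKM) and in Sst (656.3 FPKM). Home cage replicate 7 was lowest in its group for Npy1r (8.17 FPKM) and highest for Npy2r (40.41 FPKM). For Npy1r, 14-7-0 replicate 0 was high at 23.29 FPKM and 14-14-0 replicate 3 low at 6.932 FPKM. For Npy2r, 14-0-0 replicate 5 was low at 16.77 FPKM. The remaining 3 were high values of Vip in 14-7-0 replicate 3 (13.88 FPKM), Cck in 14-7-0 replicate 4 (567.2 FPKM) and Crh in 14-14-0 replicate 2 (2.399 FPKM).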

How the results depend on the processing

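A pseudocount of 1, no filter, a minimum mean of 0.1 FPKM, median-ratio scaling and untransformed FPKM moved none of the 11 counts of called genes by over 1.5 times, and cohort as a covariate moved none of the 10 counts it applies to. Against sedentary (0 called in all), a joint fit of the 7 groups, which pools the spread, called 1 gene in 14-0-0, 3 in 14-7-2, 1 in 14-14-0 and 2 in 0-0-2. Cohort 1 alone called 1 each in 14-7-2, 14-14-0 and home cage. Leaving out sedentary replicate 6 called 1 each in 14-0-0, 14-7-2, 14-14-0 and the cohort comparison. The joint fit called 0 in 14-7-2 against 14-7-0, in 14-7-2 against 0-0-2 and in the memory-enabling comparison, as did cohort 1 alone. Cohort 2 alone called 3 in the memory-enabling comparison. At p under 0.01 the same comparisons held 1, 0 and 0. Apart from median-ratio scaling and the fit without sedentary replicate 6, the share of all genes called was not taken under the alternatives of this section. Their counts therefore cannot be set beside it. The cause of these changes was not tested.

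Leaving out each library in turn gave 0 to 1 called genes in 14-0-0, 14-7-2, 14-14-0 and 0-0-2 against sedentary and between cohorts, 2 to 4 in 14-7-2 against 14-7-0, 2 to 3 in 14-7-2 against 0-0-2 and 1 to 2 in the memory-enabling comparison. Besides sedentary replicate 6, the libraries that gave a call against sedentary were sedentary replicate 4 (Npy in 0-0-2, p = 0.012, and in 14-7-2, p = 0.045) and 0-0-2 replicate 4 (Npy, p = 0.039). Npy was also called in 14-7-2 against 14-7-0 without 14-7-2 replicate 7 (p = 0.037). In the memory-enabling comparison, Tac1 was added without any of 8 libraries (p = 0.033 to 0.049) and Npy1r without 14-7-2 replicate 3 (p = 0.029).

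With the replicate number as a block, 2 genes were called in the memory-enabling comparison, Npy2r and Tac1 (p = 0.037), and Npy2r lost its call in 14-7-2 against 14-7-0 (p = 0.065). The other counts stayed within 1.5 times. Whether the numbers pair the libraries was not settled.

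Alternatives chosen after seeing the data were 2. Without the 4 libraries of high thalamus markers, 1 gene was called in each of 14-0-0, 14-7-2, 14-14-0 and 0-0-2 against sedentary, 1 in 14-7-2 against 0-0-2 (Vip) and 2 between cohorts. The joint fit without sedentary replicate 6 called 1 each in 14-7-2 and 14-14-0 against sedentary. Between exercise groups it kept the calls of the main fits and added Vip in 14-7-2 against 0-0-2 (p = 0.037). Signs turned for Penk in 14-0-0 (0.088 in cohort 1 alone, and 0.187 without sedentary replicate 6, in the joint fit without it and without the thalamus libraries), for Vip in 14-14-0 (0.238 in cohort 2 alone) and for Cck between cohorts (-0.00082 without sedentary replicate 8). With each library left out in turn, the Penk difference ran from -0.152 to 0.187 and the Cck difference from -0.00082 to 0.170.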
